A study of Sus scrofa with 6 samples.

Results

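The small leucine-rich proteoglycans are a family of 10 genes here, DCN, BGN, LUM, FMOD, PRELP, OGN, OMD, ASPN, EPYC and CHAD, measured as RNA in cartilage cells of the pig ear. They were taken by name, from the gene symbol of each gene model or, for models without a symbol, from the protein name that the authors attached to it. This gave 12 of the 19670 gene models listed, 9 by symbol and 3 by protein name. DCN and OGN have 2 models each. All 12 were deep enough to be tested, with between 12 reads (EPYC) and 130819 reads (BGN) in a library.

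These proteins are short secreted cores built of leucine-rich repeats, which form a curved solenoid. Many of them bind collagen and help to set how thick its fibrils grow, and some also bind growth factors such as TGF-beta. Several carry chains of chondroitin, dermatan or keratan sulfate, while others carry none. In cartilage they coat the collagen network that holds the large proteoglycan aggrecan.

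GW0742 cells, in 3 libraries, were auricular cartilage primary cells incubated over 24 h with GW0742, which activates the nuclear receptor PPARD. DMSO cells, in 3 libraries, were the same kind of cells incubated over 24 h with the solvent DMSO. Enzymes freed all cells of both groups from the external ears of 1 pig, aged 4 months and wild type for PPARD, of the breed Duroc × (Landrace × Large White). No dose of GW0742 and no passage number is given in the labels. The labels name no separate cultures for the triplicates. All p-values given here therefore reflect the spread among libraries alone, and that spread may be technical.

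Libraries held between 13133980 and 16913745 reads. PPARD itself averaged 55.7 ± 2.52 CPM (reads scaled to library size) with GW0742 and 51.5 ± 3.81 CPM with DMSO (SD, n = 3 each). ANGPTL4, a standard target gene of the receptor, averaged 187 ± 12.2 CPM with GW0742 and 21.3 ± 5.24 CPM with DMSO (edgeR adjusted p = 0.000193). Of the chondrocyte markers, COL2A1 averaged 474 CPM with GW0742 and 511 CPM with DMSO, whereas the matrilin MATN1 was near 0 in both groups (0.111 CPM with GW0742 and 0.105 CPM with DMSO). The fibroblast gene COL1A2 averaged 35120 CPM with GW0742 and 39570 CPM with DMSO. In such bulk libraries fewer cells of a type and less RNA per cell cannot be told apart.

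The family was led by biglycan in both groups, and its members spanned more than 3 orders of magnitude in level. On the deposited RPKM scale (reads scaled to length and library size), BGN averaged 4644 ± 225 with GW0742 and 4805 ± 449 with DMSO, which placed it 14th among all models listed. FMOD followed with 1183 ± 27.1 RPKM with GW0742 and 1181 ± 21.3 RPKM with DMSO, and PRELP with 338 ± 58.4 RPKM with GW0742 and 374 ± 38.7 RPKM with DMSO. BGN alone made up between 70.3% and 72.2% of the summed RPKM of the family in the GW0742 libraries and between 69.3% and 73.4% in the DMSO libraries. This share is uncertain, since BGN has 5 transcripts. Its deposited RPKM is higher than its reads and its listed length of 1996 bases would give. The 12 models together took between 1.29% and 1.32% of all reads with GW0742 and between 1.27% and 1.41% with DMSO, ranges that overlap.

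Below these 3 genes the order of RPKM with GW0742 was the short DCN model, ASPN, the long DCN model, CHAD, LUM, OMD, the short OGN model, the long OGN model and EPYC. With DMSO it was the short DCN model, ASPN, the long DCN model, CHAD, OMD, the short OGN model, LUM, the long OGN model and EPYC. LUM was thus 8th with GW0742 and 10th with DMSO. Neighbours in this order whose ranges over 3 libraries overlapped with GW0742 were ASPN and the long DCN model, LUM and OMD, and the long OGN model and EPYC. With DMSO they were the short DCN model and ASPN, and the short OGN model and LUM. RPKM of the short DCN model is uncertain, since the model has 198 bases, against 1491 bases in the long one.

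**Figure D1:**
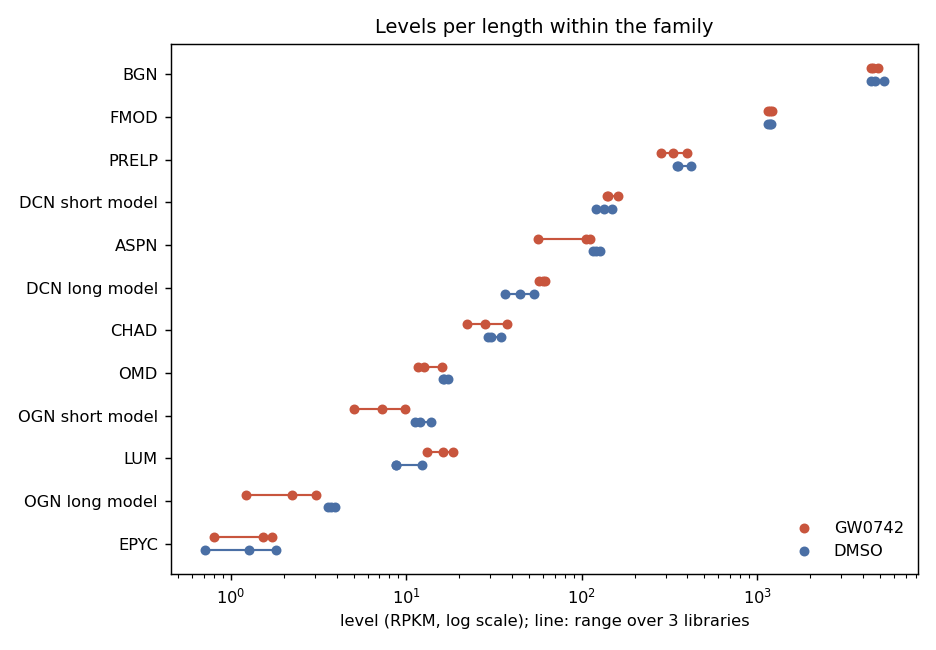
Level of each family model in every library in RPKM on a log axis, with a line over the range of 3 libraries per group and GW0742 above DMSO. BGN, FMOD and PRELP lead in both groups, and LUM stands 8th with GW0742 and 10th with DMSO.

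No member passed an adjusted p of 0.05 in edgeR, in either direction, where 0.262% of all 14146 tested models did. The fit across all models gave 2 members higher at an unadjusted p under 0.05 (LUM and the long DCN model), against 7.93% of all tested models, and 3 lower (both OGN models and OMD), against 8.91%. DESeq2 called LUM higher with GW0742 and no other member, against 3.12% of all models called in either direction there. The groups did not overlap in 6 of the 12 models. In 2 models each GW0742 library stood above each DMSO library (11.4% of all tested models), and in 4 each stood below (12.1% of all). The median log2 fold change was -0.10 over the 12 models and -0.002 over all tested models. Of the 12 log2 fold changes, 4 were above 0 and 8 below.

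**Figure D2:**
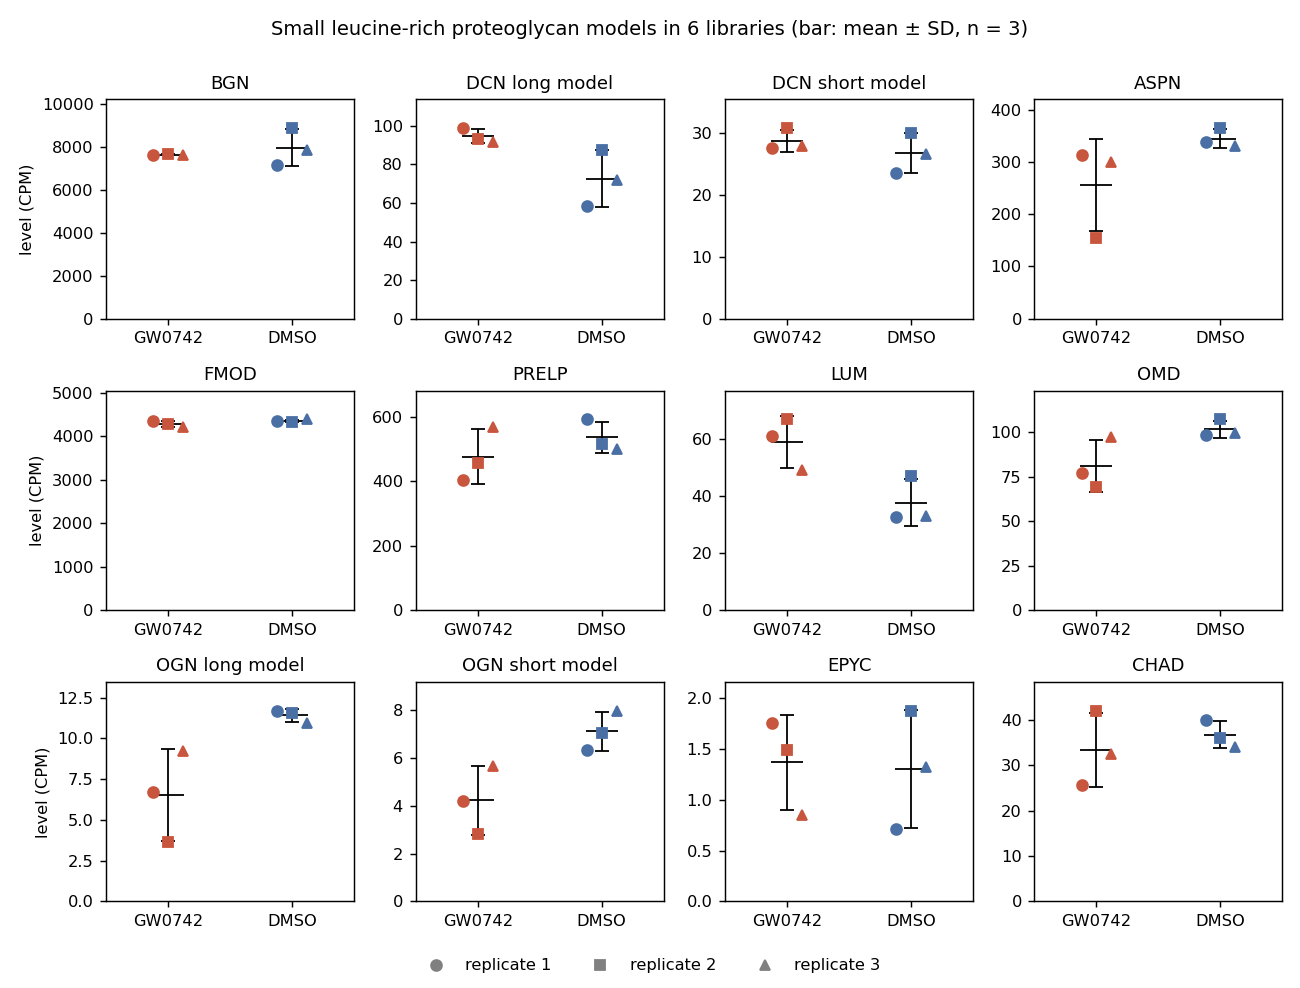
Level in CPM of the 12 models in each library, GW0742 left and DMSO right, with a symbol per replicate and the mean ± SD of 3 libraries as bars, on axes that start at 0. LUM and the long DCN model stand higher with GW0742 without overlap, both OGN models, OMD and ASPN stand lower without overlap, and FMOD is alike in all 6 libraries.

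Among the members closest to decorin, biglycan was abundant and little different between groups. BGN, which carries chondroitin or dermatan sulfate chains and binds collagen, stood at 7604, 7637 and 7609 CPM with GW0742 and at 7131, 8860 and 7845 CPM with DMSO. The 3 GW0742 values had a CV of 0.236% and lay inside the wider DMSO range. In RPKM the same libraries were less tight, at 4477, 4899 and 4555. The log2 fold change was -0.06 ± 0.08 (SE, edgeR adjusted p = 0.746), with a 95% interval of the fold from 0.845 to 1.09. Its sign depended on DMSO replicate 2, without which it was 0.02.

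Decorin (DCN), the family member known for binding collagen fibrils and TGF-beta, is split over a long model (ENSSSCG00000000915) and a short one (ENSSSCG00000021240). The long model stood at 98.9, 93.3 and 91.7 CPM with GW0742 and at 58.2, 87.6 and 71.9 CPM with DMSO. All GW0742 values were above the DMSO values, by little against DMSO replicate 2. Its log2 fold change was 0.39 ± 0.13 (edgeR adjusted p = 0.194, 95% interval of the fold from 1.07 to 1.602), and it was 0.25 without DMSO replicate 1 and 0.54 without DMSO replicate 2. DESeq2 gave it an adjusted p of 0.0731. The short model stood at 27.6, 30.9 and 27.9 CPM with GW0742 and at 23.6, 30.0 and 26.7 CPM with DMSO, overlapping, with a log2 fold change of 0.11 ± 0.11 (edgeR adjusted p = 0.645), and 0.02 without DMSO replicate 1. Reads of both models summed gave 124 ± 3.06 CPM with GW0742 and 99.2 ± 17.9 CPM with DMSO, a log2 fold change of 0.32 ± 0.11 (edgeR adjusted p = 0.192 over 12503 summed models). The labels do not say how reads were shared between the models.

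Asporin (ASPN), a close relative of decorin with a stretch of aspartates in place of chains, stood at 313, 154 and 299 CPM with GW0742 and at 339, 365 and 331 CPM with DMSO. Replicate 2 of the GW0742 group was far below its other libraries, which lay just under the DMSO range. The log2 fold change was -0.43 ± 0.22 (edgeR adjusted p = 0.373), and -0.17 without GW0742 replicate 2. The 95% interval of the fold ran from 0.520 to 1.05.

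Fibromodulin (FMOD), which carries keratan sulfate and acts with lumican on collagen fibrils, was alike in all 6 libraries. It stood at 4367, 4282 and 4228 CPM with GW0742 and at 4359, 4335 and 4393 CPM with DMSO. The group means of 4292 ± 70.5 CPM with GW0742 and 4362 ± 29.1 CPM with DMSO differed by less than the SD of the GW0742 group (log2 fold change -0.02 ± 0.05, edgeR adjusted p = 0.860). The 95% interval of the fold, 0.907 to 1.07, is the narrowest of the 12 models.

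Lumican (LUM), which binds the same part of collagen as fibromodulin, had the largest positive log2 fold change of the 12 models. It stood at 61.0, 67.0 and 49.2 CPM with GW0742 and at 32.8, 47.2 and 33.0 CPM with DMSO. The highest DMSO library, replicate 2, came close to the lowest GW0742 library, replicate 3. The fold was 1.57 (95% interval 1.22 to 2.03, log2 0.65 ± 0.16), with an edgeR adjusted p of 0.117 and a DESeq2 adjusted p of 0.00335, so the call rests on the tool. Over left-out libraries the log2 value ran from 0.55 to 0.84 and the edgeR adjusted p from 0.0709 to 0.358. Beside FMOD in the same library, LUM had between 0.0113 and 0.0152 of the RPKM with GW0742 and between 0.00731 and 0.0106 with DMSO. These ranges do not overlap, but FMOD was alike in all 6 libraries, so the ratio mainly restates LUM itself.

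Prolargin (PRELP), which links collagen to basement membranes through its basic end, stood at 405, 458 and 569 CPM with GW0742 and at 593, 518 and 501 CPM with DMSO. The groups overlapped, and GW0742 replicate 3 was among the highest libraries. Its log2 fold change was -0.17 ± 0.12 (edgeR adjusted p = 0.522), and ran from -0.32 without GW0742 replicate 3 to -0.06 without GW0742 replicate 1; without DMSO replicate 1 it was -0.09.

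Osteomodulin (OMD), a keratan sulfate carrier best known from bone, stood at 77.1, 69.1 and 97.6 CPM with GW0742 and at 98.7, 107 and 99.4 CPM with DMSO. GW0742 replicate 3 lay just under the DMSO libraries, while the other GW0742 libraries were clearly lower. The log2 fold change was -0.32 ± 0.12 (edgeR adjusted p = 0.220, DESeq2 adjusted p = 0.133).

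Mimecan (OGN), also called osteoglycin, had the largest negative log2 fold changes of the 12 models, from low counts. Its long model (ENSSSCG00000030143) stood at 6.74, 3.62 and 9.21 CPM with GW0742, from 88, 58 and 141 reads, and at 11.7, 11.6 and 10.97 CPM with DMSO, from 197, 154 and 183 reads. The short model (ENSSSCG00000008074) stood at 4.21, 2.81 and 5.69 CPM with GW0742 and at 6.35, 7.06 and 7.98 CPM with DMSO. In both models the DMSO libraries lay close together and the GW0742 libraries were spread below them.

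The log2 fold change was -0.81 ± 0.28 for the long OGN model (edgeR adjusted p = 0.200) and -0.75 ± 0.25 for the short one (edgeR adjusted p = 0.190). Without GW0742 replicate 2 these were -0.51 and -0.52, and without GW0742 replicate 3 they were -1.16 and -1.03. Summed over both models OGN was at 10.8 ± 4.28 CPM with GW0742 and 18.5 ± 0.478 CPM with DMSO (log2 -0.78 ± 0.24, edgeR adjusted p = 0.147). DESeq2 gave adjusted p-values of 0.0942 and 0.160 for the long and the short model.

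Epiphycan (EPYC), a member typical of growth plate cartilage, was the lowest. It had 23, 24 and 13 reads with GW0742 and 12, 25 and 22 reads with DMSO, which is 1.37 ± 0.469 CPM with GW0742 and 1.30 ± 0.583 CPM with DMSO. At this depth no difference was detectable (log2 0.08 ± 0.40, edgeR adjusted p = 0.940), and the interval of the fold, 0.563 to 2.00, is wide. The sign turned without DMSO replicate 1 (-0.22) or GW0742 replicate 1 (-0.13).

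Chondroadherin (CHAD), a member without chains that binds an integrin on chondrocytes, stood at 25.7, 42.0 and 32.4 CPM with GW0742 and at 40.0, 36.1 and 34.1 CPM with DMSO. GW0742 libraries lay on both sides of the DMSO libraries. The log2 fold change was -0.13 ± 0.16 (edgeR adjusted p = 0.717), at -0.33 without GW0742 replicate 2 and 0.02 without GW0742 replicate 1.

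**Figure D3:**
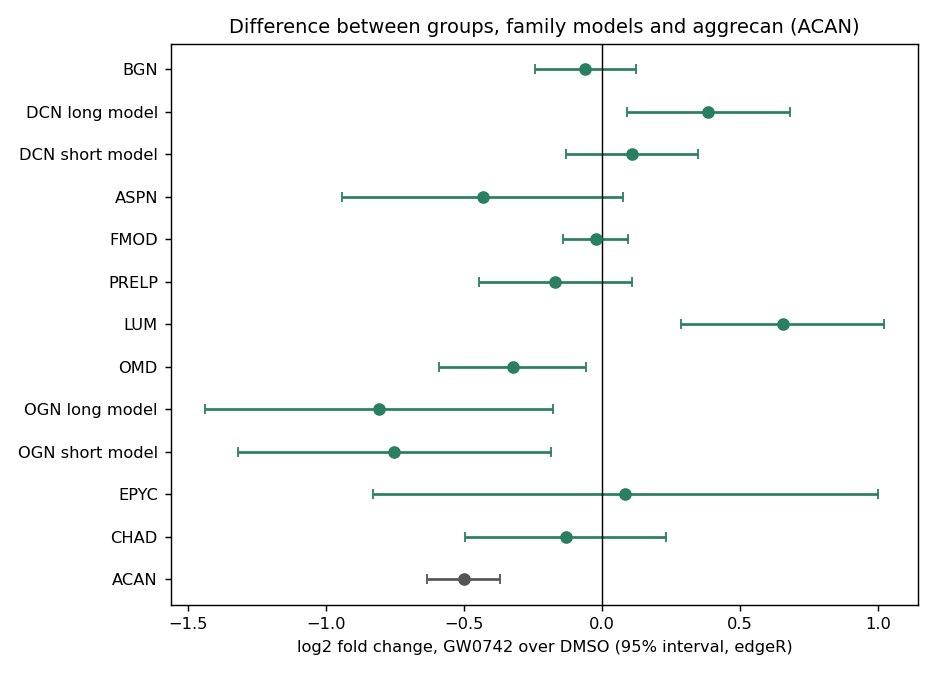
Log2 fold change of GW0742 over DMSO from edgeR with its 95% interval, for the 12 family models and for ACAN. Intervals of LUM and the long DCN model lie above 0, those of both OGN models, OMD and ACAN lie below 0, and only ACAN passed an adjusted p of 0.05.

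Aggrecan, the large proteoglycan held by this collagen network, was lower with GW0742 than with DMSO. ACAN stood at 583, 589 and 558 CPM with GW0742 and at 853, 810 and 785 CPM with DMSO (log2 -0.50 ± 0.06, edgeR adjusted p = 0.0185). The adjusted p missed the threshold when DMSO replicate 1 (0.101), DMSO replicate 3 (0.0815) or GW0742 replicate 1 (0.105) was left out. The most abundant small members, BGN and FMOD, had intervals of the log2 fold change from -0.24 to 0.12 and from -0.14 to 0.10, neither of which reaches the value of ACAN.

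Many of these genes sit side by side in the genome, in the RefSeq order of assembly Sscrofa11.1. OGN, OMD, ASPN and the related ECM2 follow each other on chromosome 3, DCN, LUM, KERA and EPYC on chromosome 5, and FMOD, PRELP and OPTC on chromosome 9, while BGN (chromosome X) and CHAD (chromosome 12) have no family neighbour. ECM2 encodes a larger matrix protein with leucine-rich repeats, and KERA (keratocan) and OPTC (opticin) are members known from the eye. No coordinates of the authors' models are used.

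All 5 models with the names OGN, OMD, ASPN and ECM2 had log2 fold changes below 0, with a median of -0.43, and none passed an adjusted p of 0.05 in edgeR. In 4 of the 5 (the members, without ECM2) each GW0742 library was below each DMSO library, against 12.1% of all tested models. Both models of OGN are counted among these 4. A model outside these 5, with the ECM2 protein name and no symbol (ENSSSCG00000028244), was picked after its values were seen. It stood at 12.6, 6.17 and 18.7 CPM with GW0742 and at 21.7, 22.4 and 22.0 CPM with DMSO (log2 -0.82 ± 0.31, edgeR adjusted p = 0.232). The model with the symbol ECM2 overlapped, at 17.7, 17.96 and 22.5 CPM with GW0742 and 20.9, 23.3 and 24.2 CPM with DMSO. GW0742 replicate 2 was the lowest GW0742 library in 4 of the 5 counted models.

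Among marker sums, that library was the lowest of the GW0742 group for smooth muscle (7820, 6168 and 7657 CPM in GW0742 replicates 1, 2 and 3, against 8124 to 8560 CPM with DMSO). It was also lowest for chondrocytes (2064, 1923 and 1984 CPM, against 2364 to 2507 CPM with DMSO) and highest for endothelium (121, 133 and 97.95 CPM, against 62.9 to 88.5 CPM with DMSO). Of the chondrocyte list, COL2A1, COL11A1, COMP and SOX9 were lowest of the GW0742 group in replicate 2. In contrast, ACAN, COL11A2, HAPLN1 and SNORC were highest there. The fibroblast sum of replicate 2 was the lowest too, at 67410, 62620 and 65760 CPM, against 65830 to 72210 CPM with DMSO. That sum is mostly COL1A2 (37080, 32630 and 35640 CPM with GW0742), whereas THY1, S100A4 and TNC of the same list were highest in replicate 2 of the GW0742 group. Their part in the values of OGN, OMD and ASPN was not tested.

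The 4 tested models of the DCN, LUM and EPYC neighbours each had a log2 fold change above 0 (median 0.25), and edgeR called none of them. In LUM and the long DCN model the groups did not overlap, and in the short DCN model and EPYC they did. KERA had between 1 and 3 reads per library with GW0742 and between 3 and 10 with DMSO, and was too low to test. FMOD and PRELP overlapped between groups, and OPTC had at most 5 reads in a library. Models of the same neighbours are not all separate genes, since DCN and OGN are each split over a long and a short model. Nor are they independent replicates of the treatment.

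**Figure D4:**
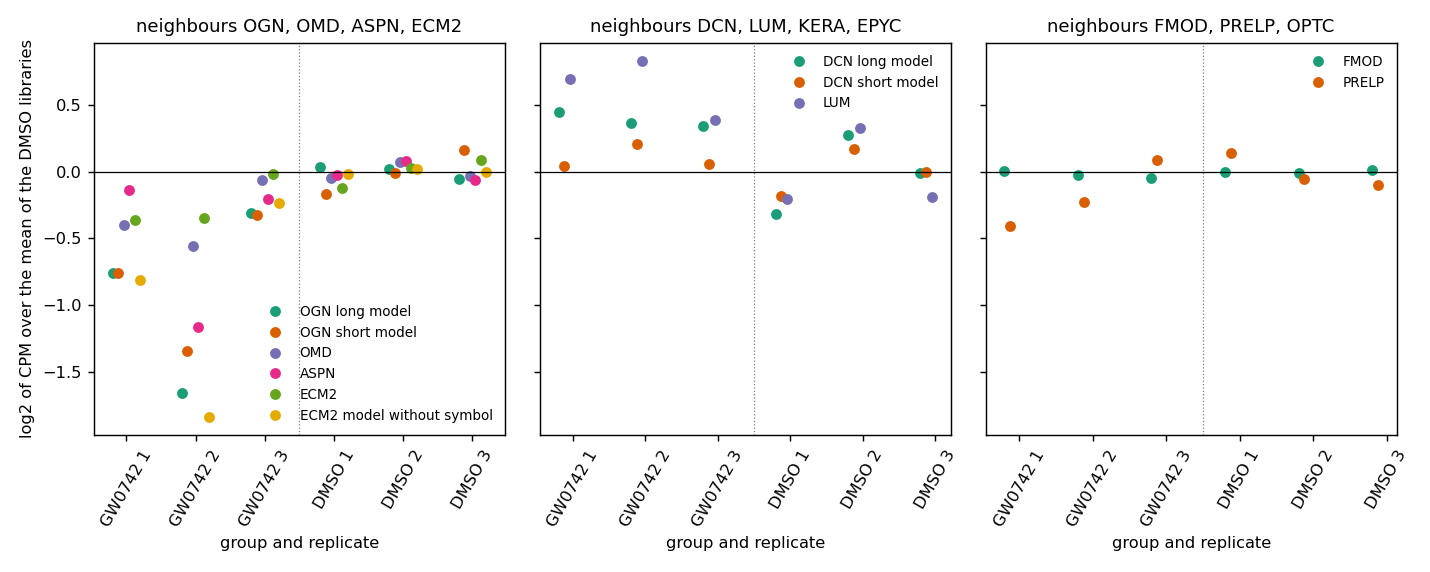
Log2 of the CPM of each library over the mean of the DMSO libraries, for tested models of the 3 sets of neighbouring genes, with EPYC left out for its low counts. Values of the OGN, OMD, ASPN and ECM2 models with GW0742 lie below 0 and are lowest in replicate 2 for OGN, ASPN, OMD and the ECM2 model without symbol, while LUM and the long DCN model lie above 0 in each GW0742 library.

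Other leucine-rich repeat proteins of the matrix gave 7 tested genes of 9 found, of which none passed an adjusted p of 0.05 in edgeR. At an unadjusted p under 0.05, 4 were higher (7.93% of all tested models were) and 0 lower (8.91% of all), and the median log2 fold change was 0.30. Tsukushi (TSKU), a secreted regulator of BMP and Wnt signals, was the most abundant at 121 ± 12.2 CPM with GW0742 and 97.99 ± 16.6 CPM with DMSO (log2 0.30 ± 0.12, edgeR adjusted p = 0.261). The others at that level were nyctalopin (NYX), PODNL1 and IGFALS, named here after their values were seen, with log2 fold changes of 1.21, 0.60 and 0.87 from mean levels of 4.43 CPM or less with DMSO.

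Collagens that the family binds gave 13 tested genes, none past an adjusted p of 0.05 in edgeR, with a median of -0.07. At an unadjusted p under 0.05, 3 were higher (7.93% of all tested models) and 3 lower (8.91% of all). COL1A2, the second chain of collagen I, had a log2 fold change of -0.17 ± 0.07 (edgeR adjusted p = 0.268), and COL6A1, a chain of the beaded collagen VI that biglycan binds, of -0.01 ± 0.10 (edgeR adjusted p = 0.979). The other chains of collagen VI, named after their values were seen, stood higher with GW0742 without overlap, at log2 0.40 ± 0.10 for COL6A3 (edgeR adjusted p = 0.125, DESeq2 adjusted p = 0.00342) and 0.26 ± 0.09 for COL6A2 (edgeR adjusted p = 0.207, DESeq2 adjusted p = 0.0760). DESeq2 also called COL11A1, a chain of the cartilage collagen XI, at log2 -0.28 ± 0.07 in edgeR (edgeR adjusted p = 0.114, DESeq2 adjusted p = 0.00683). COL1A1 was not analysed here.

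No enzyme of the sugar chains passed an adjusted p of 0.05 in edgeR. Those of the linkage, chondroitin and dermatan sulfate gave 14 tested genes, 0 past the adjusted threshold, with a median of 0.04. At an unadjusted p under 0.05, 0 were higher (7.93% of all tested models) and 2 lower (8.91% of all). UST, a uronyl sulfotransferase of dermatan sulfate, stood at 153 ± 3.90 CPM with GW0742 and 181 ± 5.83 CPM with DMSO (log2 -0.24 ± 0.06, edgeR adjusted p = 0.106, DESeq2 adjusted p = 0.0236). The chondroitin polymerizing factor CHPF had a log2 value of 0.04 ± 0.07. For keratan sulfate 6 genes were tested, with 0 past the threshold, 1 higher (against the same 7.93%) and 0 lower (against 8.91%) unadjusted, and a median of 0.10. B4GALT1 and FUT8, the most abundant of them, had log2 values of -0.06 ± 0.06 and -0.10 ± 0.09.

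Proteases that act on the family or its partners gave 8 tested genes and again 0 past the adjusted threshold in edgeR, with 2 higher (7.93% of all tested models) and 0 lower (8.91% of all) at an unadjusted p under 0.05 and a median of 0.10. The serine protease HTRA1 had a log2 fold change of -0.06 ± 0.07, and PCOLCE, an enhancer of procollagen cleavage, of 0.10 ± 0.09. The 2 at that level, named after their values were seen, were the collagenase MMP13 and the aggrecanase ADAMTS5. MMP13 had 64, 134 and 30 reads with GW0742 and 8, 7 and 9 reads with DMSO (log2 3.29 ± 0.54), with an edgeR adjusted p of 0.0609 and a DESeq2 adjusted p of 9.77e-07. ADAMTS5 had 25, 23 and 24 reads with GW0742 and 14, 13 and 17 reads with DMSO (log2 0.79 ± 0.25, edgeR adjusted p = 0.174). Receptors and growth factors that bind the family gave 14 tested genes, none past the adjusted threshold, with a median of -0.01. Unadjusted, 2 were higher and 1 lower, against the same shares of all models. The higher were CCN2 and IGF1R (log2 0.41 ± 0.12, edgeR adjusted p = 0.164). TGFB3 was the lower (log2 -0.22 ± 0.07, edgeR adjusted p = 0.181, DESeq2 adjusted p = 0.0698). IGF1R and TGFB3 were named after their values were seen. The integrin chain ITGB1 had a log2 value of -0.10 ± 0.07 and the matricellular protein CCN2 of 0.16 ± 0.07. Deposited RPKM of ITGB1 went the other way, at 408.8 to 479.5 with GW0742 and 385.8 to 396.2 with DMSO, so its direction depends on the measure. TLR4, a receptor through which soluble biglycan acts, had 12, 0 and 13 reads with GW0742 and 0 reads in each DMSO library, and was too low to test.

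**Figure D5:**
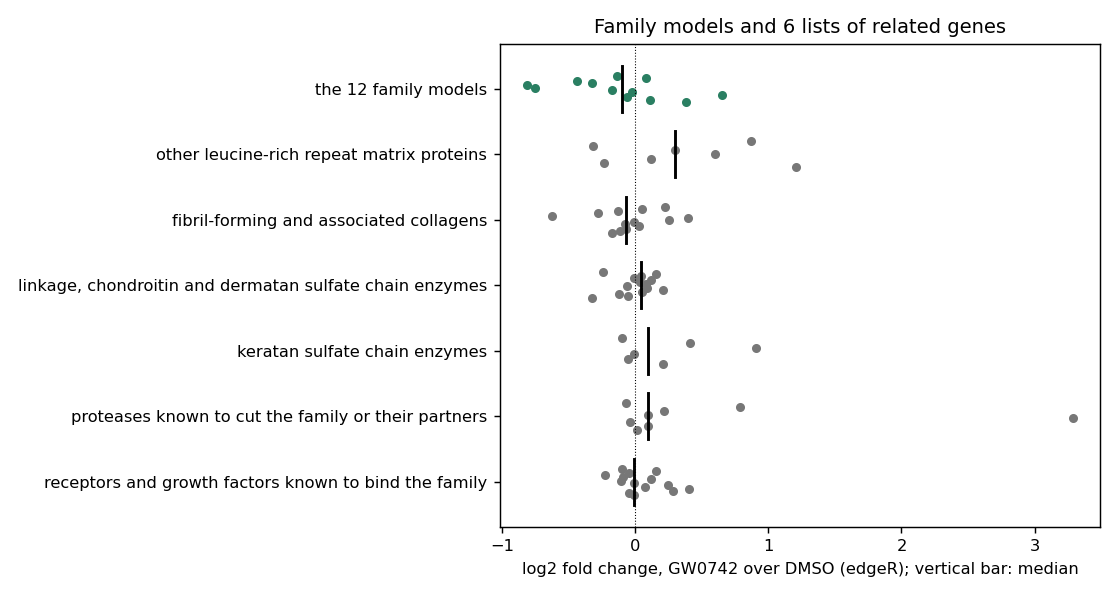
Log2 fold change of GW0742 over DMSO from edgeR for the 12 family models and for the tested genes of 6 lists, a point per model and a bar at the median. Medians lie between -0.10 for the family and 0.30 for the other leucine-rich repeat proteins, the protease point at 3.29 is MMP13, and no gene of these lists passed an adjusted p of 0.05.

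Markers of other cells moved in part with the groups. Smooth muscle markers summed to 6168 to 7820 CPM with GW0742 and 8124 to 8560 CPM with DMSO. Among 5 tested, 3 (ACTA2, CNN1 and DES) were lower at an unadjusted p under 0.05 in edgeR, against 8.91% of all tested models. In edgeR 0 passed the adjusted threshold, while DESeq2 called ACTA2 and CNN1 (DESeq2 adjusted p = 0.00562 and 0.00114). TAGLN and MYH11 overlapped between groups. Of 6 endothelial markers 6 were higher at an unadjusted p under 0.05 in edgeR, against 7.93% of all tested models. The groups still overlapped in TIE1. In edgeR 0 passed the adjusted threshold, while DESeq2 called PECAM1 and KDR (DESeq2 adjusted p = 0.000214 and 0.0156). Their summed level was 97.95 to 133 CPM with GW0742 and 62.9 to 88.5 CPM with DMSO, mostly CLDN5 and PECAM1. Of 10 tested chondrocyte markers 3 (ACAN, COL11A1 and COL9A1) were lower at an unadjusted p under 0.05 in edgeR, against 8.91% of all, and 1 (ACAN) past the adjusted threshold. Log2 fold changes of the 10 were below 0 in 7 and above 0 in 3 (SNORC, MATN3 and COMP). SNORC stood higher with GW0742 without overlap (log2 0.35 ± 0.17, edgeR adjusted p = 0.358). The chondrocyte markers summed to 1923 to 2064 CPM with GW0742 and 2364 to 2507 CPM with DMSO. Within that sum, ACAN averaged 576.5 CPM with GW0742 and 815.9 CPM with DMSO, and COL11A1 757.8 and 920.6 CPM. Fibroblast markers overlapped in their sum, but single members differed in both directions. Among 7 tested, 2 (TNC and FN1) were higher and 2 (THY1 and COL1A2) lower at an unadjusted p under 0.05 in edgeR. The shares of all tested models were 7.93% and 8.91%, and none of the 7 passed the adjusted threshold. Tendon markers overlapped in their sum too (20.4 to 23.0 CPM with GW0742 and 22.7 to 25.3 CPM with DMSO). That sum is almost all MKX, since TNMD had 0, 0 and 2 reads with GW0742 and 0 in each DMSO library. Immune markers summed to between 29.1 and 31.7 CPM with GW0742 and between 24.9 and 29.7 CPM with DMSO, mostly CD14 (318 to 393 reads in a library), while PTPRC had at most 4 reads. LEP, the 1 adipocyte marker of 4 with a symbol match, had at most 1 read in a library. The part of these cells in the levels of LUM and DCN was not tested.

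The closest patterns over the 6 libraries, by the root mean square difference of log2 CPM after centring, are given as a description among 6278 candidate genes (6279 for the short DCN model). FMOD lay nearest to PLCB3 (0.01), BGN to PDK2 (0.02), the short DCN model to PKD1 (0.03) and OMD to SAMD8 (0.04). PRELP lay nearest to METTL5 (0.06), the long DCN model to the endothelial claudin CLDN5 (0.07), CHAD to PPT1 (0.08) and ASPN to DRAM2 (0.09).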

How the data were processed

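Per the labels' protocols, oligo(dT) beads enriched the mRNA, which was fragmented and sequenced on an Ion Proton instrument. The deposited library tables hold, per the file headers, estimated counts of reads and RPKM values per gene model, both made by the authors. The submitters' processing notes name Sscrofa 10.2 as the build. For aligner, counting program and annotation, nothing is given in the sources used here. No strand-marking step is named, so it is not known whether overlapping genes on opposite strands were told apart.

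Estimated counts were rounded, filtered with filterByExpr (minimum count 10), scaled by TMM and tested across all genes (14146 models) with edgeR 4.0.16 (R 4.3.3) by its quasi-likelihood test, comparing GW0742 with DMSO and with no block, with Benjamini-Hochberg adjustment (two-sided, threshold 0.05). CPM values use TMM-scaled library sizes. The SE is the log2 fold change divided by the root of F, and its 95% interval uses the t quantile of the same fit. RPKM levels are the authors' deposited values, used for the order, shares and ratios of levels, for the choice of named list genes and in limma.

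Symbols came from a gene name table (11147 models) and, for 567 more, from protein match and pathway identifier together, through RefSeq. Named genes are the 10 members, PPARD, ANGPTL4 and ACAN, list members past the threshold, the 2 of each list with the highest RPKM, and the nearest pattern of each member of at least 10 CPM (that of LUM is not reported here). Members and lists were chosen with earlier results of these data known. Alternatives were median-of-ratios factors, DESeq2 1.42.0, no filter, each library left out, the replicate block, limma 3.58.1 on log2(RPKM + 1) and log2(RPKM + 0.1), and models summed by protein name. In a simulation of the GW0742 and DMSO libraries over 14146 genes, edgeR recovered 41.8% of 67 genes changed 1.5-fold, 73.1% of 67 changed 2-fold and 97.0% of 66 changed 4-fold. Of its 154 calls, 8.4% were false. In the same simulation DESeq2 recovered 46.3%, 74.6% and 93.9% of these genes, and 18.8% of its 176 calls were false. Within groups, pairs of libraries differed by a chi-square of 4.3 to 16.0 for each degree of freedom, beyond sampling noise.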

Additional observations from a re-analysis of the deposited data

How the results depend on the processing

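Of 156 log2 fold changes of family models under 13 alternatives, 149 kept their sign and stayed outside the threshold. LUM passed in DESeq2, which gave 1 member higher. The sign turned for FMOD with limma on log2(RPKM + 1) and log2(RPKM + 0.1) (0.0015 in both) and for 3 models when 1 library was left out, over ranges of -0.13 to 0.024 for BGN, -0.22 to 0.42 for EPYC and -0.33 to 0.021 for CHAD. The order of levels was the same in CPM per kilobase. Over all tested models edgeR gave 26 higher and 11 lower. DESeq2 gave 207 and 234 (the cause was not tested), no filter 13 and 3, limma on log2(RPKM + 1) 3 lower, limma on log2(RPKM + 0.1) 17 and 4, and summed models 46 and 21. When any 1 library was dropped, between 6 and 54 were higher and between 0 and 47 lower, with at least 842 lower at an unadjusted p under 0.05. In edgeR with the replicate block, 10 were higher and 0 lower (1102 lower at an unadjusted p under 0.05), and no member passed. Libraries of equal number did not deviate together (correlations 0.005, -0.032 and -0.103). With 3 libraries in each group this shows no pairing by number but cannot exclude one. At 12 to 25 reads in a library, EPYC has the widest interval of the 12 models.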
